A study of Mus musculus with 10 samples.

Results

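The genes described here are 31 mouse interferon response genes, taken by symbol from a list of genes known to be induced by interferons, low ones included. These genes were chosen with earlier results of these data known. Their shares, given beside those of all genes, are descriptive only. All 31 were among the 24453 genes measured. RNA was sequenced from microglia, the macrophages that reside in brain tissue, after bead isolation from brains of untreated C57bl6 mice. The 10 libraries fell into 4 groups. An aged group held 3 libraries from mice of 15 months and a young group held 3 libraries from mice of 10 weeks. A further pair of libraries was labelled Rab7 deltaMG and another pair Rab7 Control, all 4 from mice of 3 months, and the series describes the deltaMG mice as null for Rab7, a small GTPase of late endosomes. The labels do not name a Cre driver or promoter for the deltaMG allele, nor whether the control mice carried part of it. The members were followed in the comparison of aged with young libraries and in that of libraries labelled deltaMG with those labelled control.

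Interferons are secreted proteins that cells make after sensing foreign or misplaced nucleic acid. Type I interferons bind the receptor chains Ifnar1 and Ifnar2, the kinases Jak1 and Tyk2 phosphorylate Stat proteins, and Stat2 joins Irf9 in a complex that binds interferon-stimulated response elements in the promoters of induced genes. The induced proteins block viral entry, degrade or sequester foreign RNA, sense nucleic acid, modify other proteins and recruit leukocytes. Microglia both make and answer interferons, and such genes are a known component of their response to infection, injury and age.

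To show what the members share in sequence, their promoters were searched on both strands, over the 250 bases before and 50 bases after the gene start in the RefSeq table for GRCm38.p6. The letters searched were GAAANNGAAA, the core of an interferon-stimulated response element. Of the 31 members, 23 were in that table. Ifi27l2a, Oas2, Usp18, Ifi204, Rtp4, Zbp1, Mx1 and Parp14 were not in it. The core was found in 15 of the 26 promoters of these members, against 3.44% of all 32851 promoters of the same length. By gene it was found in 14 of the 23 members (60.9%), against 3.99% of the 27025 genes in the table. The separate core TTCNNNGAA, that of the gamma-activated site, was found in 5 of the 26 promoters, against 8.30% of all, and in 5 of the 23 members (21.7%), against 9.55% of genes. Windows from 6 members are printed 5′ to 3′ on the strand of the gene, with every match to the first core, or to its reverse complement, in capitals and overlapping matches merged. Isg15 and Bst2 show overlapping copies, Ifit1 and Ifit3 show 2 copies on the opposite strand, and Cxcl10 shows 1 copy. The Ifitm3 stretch lies within an annotated Ifitm3 exon, from base 3 to base 31 after the start. The windows are chr4:156200856-156200915 (minus strand) for Isg15, chr8:71537565-71537624 (minus) for Bst2, chr19:34640769-34640828 (plus) for Ifit1, chr19:34583365-34583424 (plus) for Ifit3, chr5:92349068-92349127 (minus) for Cxcl10 and chr7:141010714-141010742 (minus) for Ifitm3.
Isg15: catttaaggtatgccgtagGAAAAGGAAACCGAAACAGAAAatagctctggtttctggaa
Bst2: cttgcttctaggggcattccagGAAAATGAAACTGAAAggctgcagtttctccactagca
Ifit1: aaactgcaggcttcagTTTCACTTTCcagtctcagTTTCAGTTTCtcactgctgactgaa
Ifit3: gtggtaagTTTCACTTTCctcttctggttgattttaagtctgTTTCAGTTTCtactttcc
Cxcl10: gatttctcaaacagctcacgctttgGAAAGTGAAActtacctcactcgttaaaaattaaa
Ifitm3: GAAAAGGAAActtctgaGAAACCGAAAct

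The deposited values were taken to be RPM, reads per 1000000 reads of a library total. That unit was inferred from the steps between low values and is not given by the labels. On this reading the totals were 6098263 to 9907453 reads. A single read was worth 0.101 to 0.164 RPM, and all listed genes together held 18.7% to 23.5% of the totals. Rab7 itself was at 64.2 and 67.5 RPM under the control label and at 72.2 and 79.4 RPM under the deltaMG label, so it was not lower in the libraries labelled deltaMG and its level gives no check of those labels. Cx3cr1, the fractalkine receptor of microglia, singled out after its values were seen, was 398 and 437 RPM under the control label. It was 965 and 1285 RPM under the deltaMG label and 1068 to 1174 RPM in the young libraries, so on this gene the libraries labelled control stood apart. Directions in that comparison rest on the labels as given, and what the Cx3cr1 level says of them was not tested. Xist was 1715 to 1771 RPM in the young libraries and under 1 RPM in the aged ones, where Y-linked genes summed to 35.7 to 48.7 RPM. Age and sex therefore cannot be told apart in the first comparison, and all 4 libraries of the second carried both Xist and Y-linked reads. All 10 microglia markers, Cx3cr1 among them, were found in every library. Neutrophil markers were found too, all 14 in every library, and summed to 568 to 1477 RPM in the young, 988 to 4580.3 in the aged, 471 to 712 in the control and 1231 to 1854 RPM in the deltaMG libraries. The 10 monocyte markers were also found in every library and summed to 90.4 to 231 RPM in the young, 214 to 905 in the aged, 78.4 to 118 in the control and 205 to 272 RPM in the deltaMG libraries. Aged replicate 3 had the highest sum of both lists and was the highest aged library for all 14 and all 10 of their genes. For most monocyte markers the aged signal was not confined to that library, but for the neutrophil markers it was not seen in every aged library. Every aged library was above every young one for 7 of the 10 monocyte markers and 1 of the 14 neutrophil markers, and below for 0. Aged replicate 1, with sums of 1729 RPM for neutrophil and 316 RPM for monocyte markers, was above the young range of both. Aged replicate 2, at 988 and 214 RPM, lay within both young ranges. The aged mean, which includes replicate 3, was above the young mean for all 10 and all 14. The part of the monocyte markers in the members' values was not tested. Nothing in the labels says whether replicates came from separate animals. The p-values therefore describe the spread among the libraries at hand, which may be technical.

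Summed over the 31 members, expression was higher in every aged library than in any other library. The sums were 259, 267 and 215 RPM in the young libraries and 399, 385 and 493 RPM in the aged ones. Means were 247 ± 28.3 RPM (SD, n = 3) and 426 ± 58.5 RPM (SD, n = 3), a ratio of 1.72, or 0.78 on the log2 scale. The control sums were 259.6 and 259.5 RPM and the deltaMG sums 265 and 286 RPM. Their means of 259.5 ± 0.0897 RPM and 276 ± 14.8 RPM (SD, n = 2 each) gave a ratio of 1.06, or 0.09 on the log2 scale. That near equality rested on Lgals3bp, without which the log2 ratio of the sums was 0.32, and without the 4 highest members the ratio was 1.25. Lgals3bp, Parp14, Trim30a and Ifitm3 held 56.1% of the members' RPM over all libraries. The 20 members with too little signal for the test described next summed to 33.4, 42.8 and 35.7 RPM in young libraries. In aged libraries they summed to 86.3, 74.9 and 94.2 RPM. In these bulk samples, a change in the share of cells that express a gene and a change in RNA per cell cannot be told apart. The microglia markers, which include no member, had young sums of 5395 to 6009.5 RPM and aged sums of 3526 to 3969 RPM, against 4918 to 5338 in control and 4546 to 5841 RPM in deltaMG libraries, and their part in the members' values was not tested. Without aged replicate 3 the members' aged sum was 0.67 above the young on the log2 scale.

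**Figure D1:**
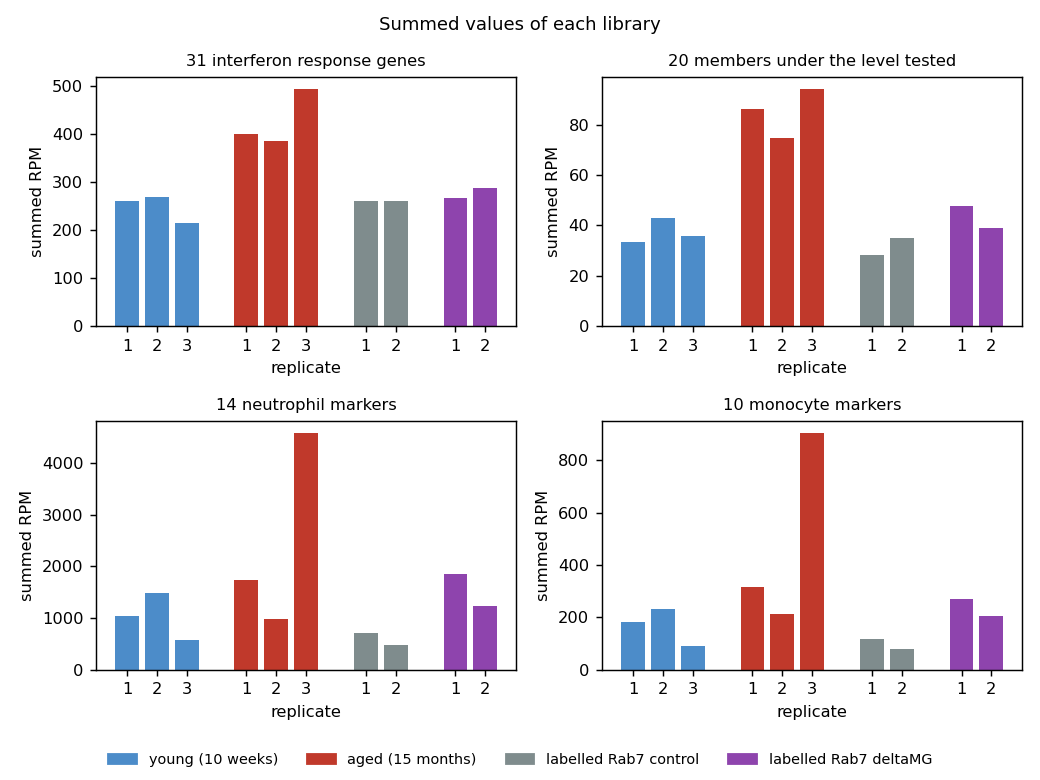
Summed RPM of each library (bars, 1 per replicate, grouped by colour) for the 31 interferon response genes, the 20 members under the level tested, 14 neutrophil markers and 10 monocyte markers. The members' sums are 385 to 493 RPM in the aged and 215 to 286 RPM in the other libraries, while the neutrophil and monocyte sums of aged replicate 3, at 4580.3 and 905 RPM, stand above those of the other 2 aged libraries.

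Of the 31 members, 11 had at least 10 RPM in at least 2 libraries and were tested with limma among 4151 genes on log2(RPM + 1), which understates fold changes of low genes. Aged libraries had higher levels of 5 of the 11 and lower levels of 0 at a Benjamini-Hochberg adjusted p under 0.05, and 6 and 0 at an unadjusted one. Among all tested genes 3.16% were called higher in aged libraries and 2.99% lower. The 5 were Ifi204, Ifitm3, Oasl2, Slfn5 and Lgals3bp. Of these, Ifi204 reached 10 RPM in aged libraries only, so its place among the 11 depended on its aged level. The median log2 difference was 0.32 over the 11 members and -0.05 over all tested genes. Without aged replicate 3, or with a neutrophil score as covariate, limma called 3 of the 11 higher, namely Ifi204, Ifitm3 and Oasl2, where 1.69% and 2.02% of all genes were called higher.

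Ifitm3 encodes a membrane protein that blocks the fusion of viruses with endosomes, and its gene lies at chr7:141009586-141010770 on the minus strand (GRCm38, GENCODE M21). It was 20.01, 27.1 and 15.1 RPM in young and 45.6, 51.8 and 93.1 RPM in aged libraries. Every aged library was above every young one, and aged replicate 3 was highest by a wide margin. The fitted log2 difference was 1.54 ± 0.24 (SE), a fold of 2.90, with an adjusted p of 0.00238 in limma. Reads shared with the similar Ifitm2 may have been split between the genes by the counting used.

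Ifi204 encodes a DNA-binding protein of the nucleic acid sensing PYHIN family (chr1:173747293-173766943, minus strand). It was 4.89, 6.07 and 3.74 RPM in young and 15.98, 19.1 and 18.2 RPM in aged libraries. The groups were separated by a wide gap, and aged replicate 3 was not the highest. The log2 difference of 1.68 ± 0.22 (SE) was 3.21-fold, with an adjusted p of 0.000492 in limma. Ifi204 reached the level tested through the aged libraries only, and its family holds near-identical genes. The calls of Ifi204 and Ifitm3 held in every alternative that tested them, with adjusted p up to 0.00485 and 0.0228.

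Oasl2, a relative of the oligoadenylate synthetases that activate RNase L, lies at chr5:114896936-114912234 (plus strand). It was 10.9, 9.18 and 3.74 RPM in young and 18.8, 21.1 and 22.5 RPM in aged libraries. The aged values lay close together and above all young values, of which replicate 3 was the lowest. The log2 difference was 1.39 ± 0.31 (SE), 2.62-fold, with an adjusted p of 0.0180 in limma. Without young replicate 3 the adjusted p was 0.051.

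Slfn5 belongs to the Schlafen family of growth and restriction factors (chr11:82951349-82964840, plus strand). Its values were 9.46, 20.3 and 12.95 RPM in young and 30.4, 20.2 and 33.0 RPM in aged libraries. The ranges touched, since young replicate 2 and aged replicate 2 were level. The log2 difference was 0.95 ± 0.24 (SE), with an adjusted p of 0.0334 in limma. That call was lost without young replicate 1 (adjusted p = 0.153), young replicate 3 (0.083), aged replicate 1 (0.103), aged replicate 3 (0.085), control replicate 1 (0.056) or control replicate 2 (0.057). The antisense gene Slfn5os overlaps 559 bp of its exons, and reads of the 2 strands could not be told apart.

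Lgals3bp encodes a secreted glycoprotein that binds galectins (chr11:118392751-118402092, minus strand). It was 51.7, 45.8 and 33.7 RPM in young and 56.9, 69.4 and 78.2 RPM in aged libraries. The groups did not overlap, but aged replicate 1 was near young replicate 1. The log2 difference of 0.64 ± 0.17 (SE), 1.56-fold, had an adjusted p of 0.0424 in limma. Without young replicate 3 the adjusted p was 0.141, without aged replicate 3 it was 0.109, and without young replicate 2 or aged replicate 2 it was 0.079 and 0.052. Without control replicate 1 or 2, which share in the estimate of the spread, it was 0.068 in each case.

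The other 6 tested members were not called between aged and young libraries. Parp14, an ADP-ribosyltransferase, was 43.3, 39.7 and 39.7 RPM in young and 50.4, 49.6 and 53.7 RPM in aged libraries. Its groups did not overlap, and the log2 difference of 0.32 had an adjusted p of 0.142 in limma. Trim30a, a restrainer of innate immune signalling, was 41.3, 30.8 and 25.6 RPM in young and 41.7, 36.8 and 40.3 RPM in aged libraries, with overlap and an adjusted p of 0.324. The RNA helicases Ddx58 (RIG-I) and Ifih1 sense viral RNA in the cytosol, and their log2 differences of 0.27 and 0.17 had adjusted p of 0.573 and 0.692. Ddx58 was 13.7, 10.7 and 10.8 RPM in young and 18.3, 8.78 and 17.8 RPM in aged libraries, with aged replicate 2 below every young library. Ifih1 was 8.51, 10.0 and 12.8 RPM in young and 12.4, 10.5 and 12.3 RPM in aged libraries. Stat2 and Irf9 belong to the complex that carries the type I signal, and their log2 differences were 0.19 and 0.05. Stat2 was 11.5, 14.8 and 12.2 RPM in young and 13.6, 13.1 and 17.8 RPM in aged libraries. Irf9 was 10.6, 10.3 and 8.78 RPM in young and 8.77, 10.2 and 11.9 RPM in aged libraries. For Irf9 the 95% interval of the log2 difference ran from -0.38 to 0.48 and for Stat2 from -0.24 to 0.62.

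The other 20 members were below the level tested, with means from 0.603 to 7.12 RPM over the 10 libraries. When the minimum was lowered to 1 RPM in at least 2 libraries, all 31 members were among the 10800 genes fitted. Limma then called 11 of the 31 higher in aged libraries and 0 lower (18 and 0 at an unadjusted p under 0.05), where 2.34% of all genes were called higher and 1.10% lower. The median log2 difference was 0.62 over the 31 members and -0.02 over all genes. Beside the 5 above, the 11 were Cxcl10, Ifit2, Oas2, Ifit1, Mx1 and Ifi44. Ifi44 and Ifi27l2a passed this lower minimum through aged libraries only.

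Cxcl10 encodes a chemokine that attracts lymphocytes bearing Cxcr3 (chr5:92346638-92348889, minus strand). It was 1.58, 3.61 and 1.73 RPM in young and 11.3, 8.18 and 9.40 RPM in aged libraries. Behind these values were 44 reads in young and 227 in aged libraries, and the lowest aged library was well above the highest young one. The log2 difference was 1.73 with an adjusted p of 0.000918 in limma. Exons of Art3 on the other strand overlap 133 bp of its exons, and reads there could not be told apart.

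The Ifit proteins bind foreign RNA and hold back its translation. Ifit2 was 1.42, 4.26 and 1.44 RPM in young and 8.93, 10.8 and 7.24 RPM in aged libraries (log2 difference 1.65, limma adjusted p = 0.00278). Ifit1 was 1.26, 1.15 and 2.02 RPM in young and 5.33, 4.44 and 4.06 RPM in aged libraries (log2 difference 1.19, limma adjusted p = 0.0145). For both genes aged replicate 3 was the lowest aged library. Ifit3 was 2.84, 3.61 and 1.87 RPM in young and 7.99, 4.95 and 6.10 RPM in aged libraries, again without overlap, and its limma adjusted p was 0.0729. The near-identical Ifit3b stood at 0.164 to 0.864 RPM in young and 0.889 to 1.10 RPM in aged libraries, and reads may have been split between the pair.

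Oas2, an oligoadenylate synthetase, was 3.47, 3.12 and 2.59 RPM in young and 8.30, 7.27 and 9.65 RPM in aged libraries, with a limma adjusted p of 0.00870. Mx1, a gene of the dynamin-like GTPase family, was 2.05, 1.97 and 2.02 RPM in young and 6.42, 5.45 and 4.44 RPM in aged libraries, with a limma adjusted p of 0.0196. Neither gene's groups overlapped. Ifi44 was 0, 0 and 0.288 RPM in young and 2.04, 1.61 and 0.635 RPM in aged libraries. It rested on few reads, 2 in young and 34 in aged libraries, a ratio of 13.6 with an exact 95% interval from 3.50 to 117 that covers counting error only. With 1 RPM as the minimum and either aged replicate 3 left out or a neutrophil score as covariate, limma called 9 of the 31 members higher, with 1.15% and 1.24% of all genes called. The same 9 were called in both, Ifi204, Ifitm3, Oasl2, Cxcl10, Ifit1, Ifit2, Oas2, Mx1 and Ifi44, without Slfn5 and Lgals3bp. With voom on estimated reads limma also called 9, without Lgals3bp and Ifi44, where 1.20% of all genes were called higher. These alternatives were added after seeing the data.

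The remaining low members were not called at the lower minimum. Isg15, the ubiquitin-like modifier often used as a marker of the response, was 0.315, 0.984 and 1.58 RPM in young and 0.940, 1.21 and 1.52 RPM in aged libraries. These overlapped, at 19 and 30 reads, and the ratio of 1.27 had an exact 95% counting interval from 0.690 to 2.38. Usp18, which removes Isg15 from proteins and restrains the receptor, ranged from 0.288 to 1.10 RPM in young and from 1.11 to 1.90 RPM in aged libraries. Irf7, the transcription factor that amplifies interferon production, ranged from 0.864 to 1.73 RPM in young and from 1.41 to 2.54 RPM in aged libraries. Rsad2, an enzyme that makes an antiviral nucleotide, and Bst2, a tether of budding virions, overlapped between the groups. Rsad2 was highest in aged replicate 3, at 7.11 RPM, and Bst2 lowest of the aged libraries there, at 0.635 RPM. Slfn2, a Schlafen family member needed for immune cell quiescence, was 16.9 RPM in aged replicate 3 but 7.21 and 5.85 RPM in the other aged libraries, against 4.25 to 6.62 RPM in young ones. Zbp1, a sensor of Z-form nucleic acid, Xaf1, a promoter of cell death, Ifi35 and Ifi27l2a were without overlap, with aged minima of 1.88, 1.92, 2.04 and 1.10 RPM and young maxima of 1.15, 1.30, 1.64 and 0.820 RPM. Oas1a and the Golgi chaperone Rtp4 overlapped.

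Across all 31 members the aged mean was above the young mean in 31, where 47.3% of the 10800 genes had a higher aged mean. The members were chosen with earlier results of these data known, so this and the shares below describe the list and do not test it. Every aged library was above every young one for 18 members, against 8.60% of all genes, and below for 0, against 10.9%. The 13 with overlap were Irf7, Isg15, Oas1a, Stat2, Rsad2, Bst2, Rtp4, Ddx58, Trim30a, Slfn2, Slfn5, Ifih1 and Irf9. With aged replicate 3 left out, 19 of the 31 members did not overlap, against 10.4% of all genes. For 15 members every aged library was above all 7 other libraries, including those of 3 months, against 2.07% of all genes. Aged replicate 3 was the highest aged library for 17 members, where it was highest for 51.2% of all genes, and the lowest for Ifit1, Ifit2, Ifit3b, Ifi44, Bst2 and Mx1. Of the 14 members with the promoter core, 5 were without overlap between aged and young libraries, and of the 9 without it, 6 were. Of the 8 members not in the promoter table, 7 were. Both deltaMG libraries were above both control libraries for 7 of the 14, 4 of the 9 and 2 of the 8. Any link of the core to these ranges was not tested.

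**Figure D2:**
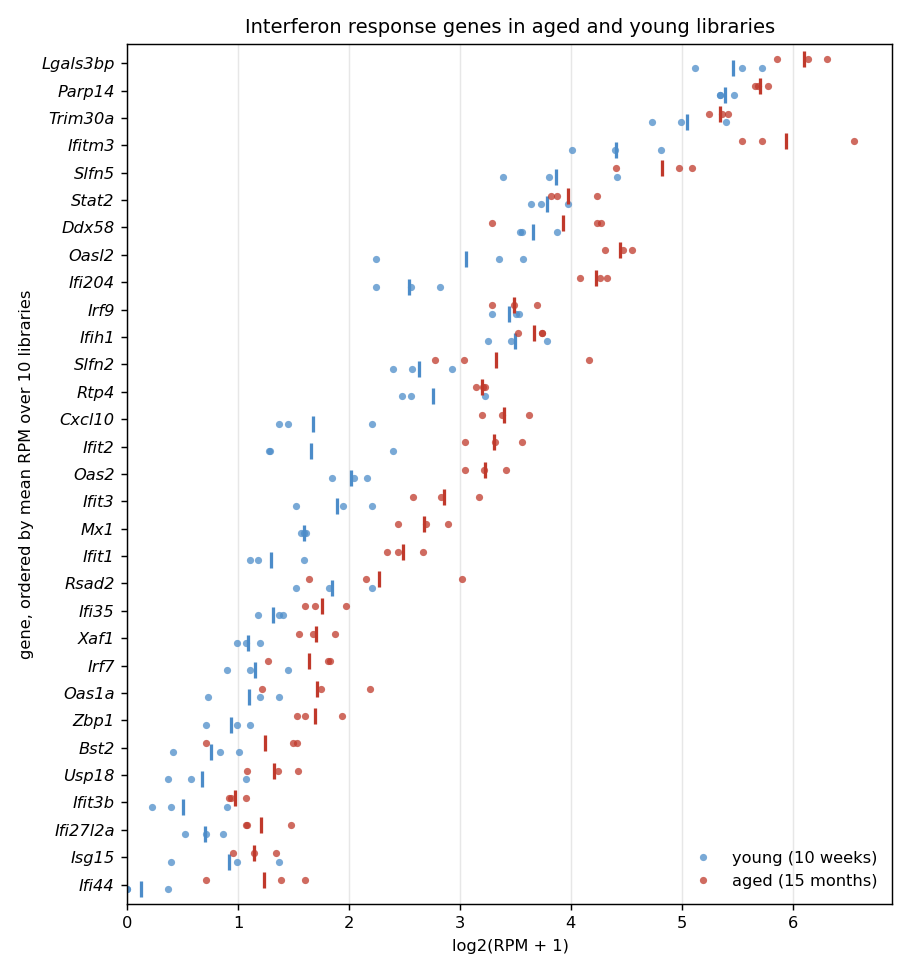
Level of each of the 31 members, log2(RPM + 1) on the x axis, in 3 young and 3 aged libraries (points), with the mean of the log2 values of each group (vertical bars) and genes ordered by mean RPM. The aged points lie to the right of all young points for 18 members, Ifi204, Cxcl10 and Ifit2 among them, and overlap them for 13, Irf9, Stat2 and Ifih1 among them.

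The libraries labelled deltaMG had a higher level of 1 of the 11 tested members than those labelled control and lower levels of 0 (2 and 1 at an unadjusted p under 0.05), where limma called 1.20% of all genes higher and 2.58% lower. That member was Ifitm3, at 9.96 and 11.7 RPM in control and 26.9 and 23.0 RPM in deltaMG libraries. Both deltaMG libraries were well above both control libraries and within the young range. The log2 difference was 1.13 ± 0.30 (SE), 2.19-fold, with an adjusted p of 0.0479 in limma. With the neutrophil score as covariate it was 0.55 with an adjusted p of 0.204, and all 14 neutrophil markers and 9 of 10 monocyte markers were above control in both deltaMG libraries. The call was lost in 13 of 26 alternatives, among them each one that left out a library of the pair (adjusted p from 0.131 to 0.334), young replicate 1 (0.069) or aged replicate 1 (0.052).

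Lgals3bp was 76.2 and 77.6 RPM in control and 40.5 and 54.0 RPM in deltaMG libraries. It was lower in both deltaMG libraries by a log2 difference of -0.71 ± 0.21 (SE), with an adjusted p of 0.0768 in limma, and was called lower in 10 of 27 alternatives, among them the neutrophil score (adjusted p = 0.0097) and leaving out young replicate 3 (0.045) or aged replicate 3 (0.032). Its control level was also above that of all young libraries. Slfn5, at 8.77 and 9.02 RPM in control and 13.7 and 16.6 RPM in deltaMG libraries, differed by 0.70 with an adjusted p of 0.207. Ifi204 was 8.77 and 8.04 RPM in control and 9.68 and 6.36 RPM in deltaMG libraries, and Oasl2 was 5.50 and 6.77 against 5.73 and 11.6 RPM. Both overlapped. Parp14, Trim30a, Stat2, Ddx58, Ifih1 and Irf9 had log2 differences between -0.01 and 0.22. Trim30a, at 34.3 and 33.0 RPM in control and 34.8 and 44.4 RPM in deltaMG libraries, and Ddx58, at 10.8 and 9.59 against 11.6 and 11.4 RPM, were just above control in both deltaMG libraries. The other 4 overlapped. Parp14 was 49.3 and 40.6 RPM in control and 49.1 and 45.4 RPM in deltaMG libraries. Stat2 was 10.8 and 9.31 against 9.08 and 14.3 RPM, Irf9 8.02 and 11.1 against 9.08 and 11.6 RPM, and Ifih1 8.62 and 7.76 against 7.41 and 8.82 RPM.

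Among the low members the differences between these 4 libraries rested on few reads. At a minimum of 1 RPM, limma called 1 of the 31 members higher in deltaMG libraries, again Ifitm3, and 0 lower (4 and 1 at an unadjusted p under 0.05), where 0.657% of all genes were called higher and 1.03% lower. Oas2 was 1.04 and 2.26 RPM in control and 4.42 and 3.76 RPM in deltaMG libraries, and Slfn2 was 3.42 and 4.09 against 9.68 and 8.25 RPM. Both were without overlap, with limma adjusted p of 0.125 and 0.15. Isg15 was 0.149 and 0 RPM in control, which is 1 read in all, and 0.717 and 0.579 RPM in deltaMG libraries, 10 reads. Cxcl10, at 2.82 and 3.81 RPM in control and 3.23 and 1.74 RPM in deltaMG libraries, overlapped, as did Ifit1, at 1.49 and 2.54 against 2.63 and 2.17 RPM, and Ifit2, at 3.42 and 3.53 against 3.58 and 2.31 RPM. Mx1, at 1.78 and 1.83 against 4.30 and 2.60 RPM, and Ifi44, at 0 and 0.423 against 0.597 and 0.434 RPM, did not. The deltaMG mean was above the control mean for 23 of 31 members, where it was for 49.5% of all genes. Both deltaMG libraries were above both control libraries for 13 of 31 members, against 22.8% of all genes, and below for Usp18, Bst2 and Lgals3bp, 3 of 31, against 22.6%.

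**Figure D3:**
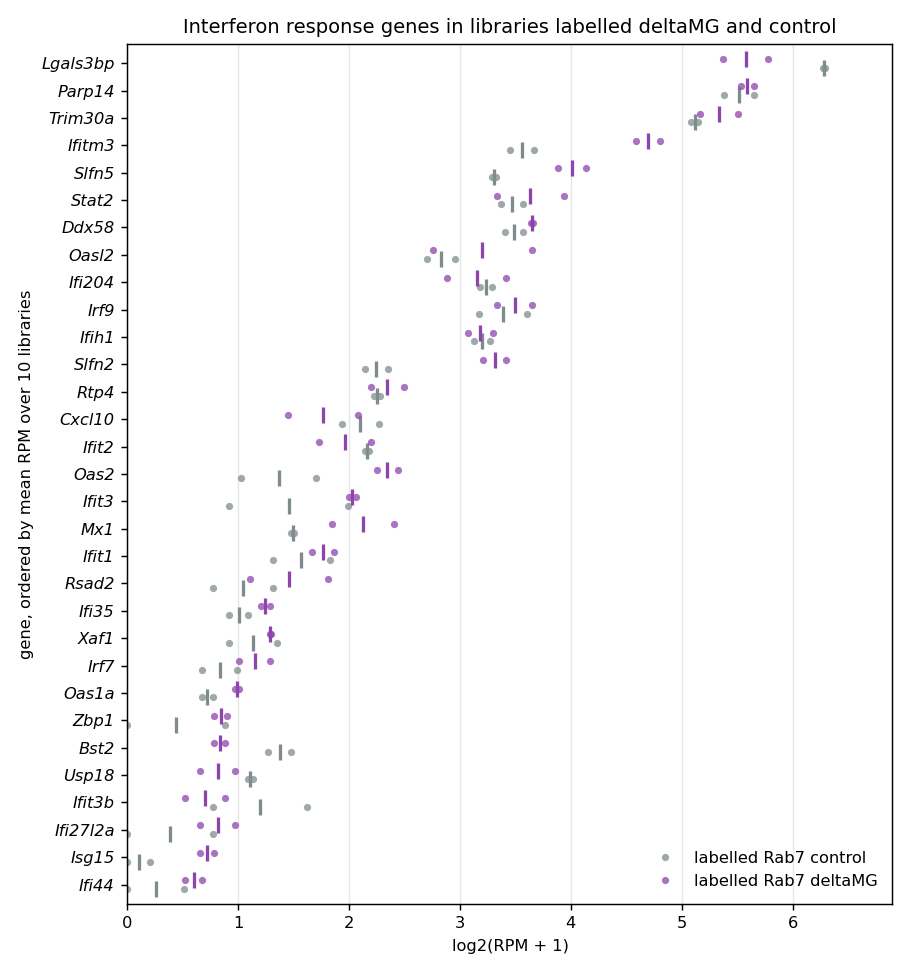
Level of each of the 31 members, log2(RPM + 1) on the x axis, in 2 libraries labelled control and 2 labelled deltaMG (points), with the mean of the log2 values of each group (vertical bars). The deltaMG points lie to the right of the control points for 13 members, with Ifitm3 the one called, and to the left for 3, Lgals3bp among them.

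Whether the 2 differences differed from each other was tested as a contrast of its own in the same fit. Limma called 2 of the 11 members, Ifi204 and Lgals3bp, both with aged minus young above deltaMG minus control on the log2 scale, where 2.67% of all genes were called in that direction and 2.12% in the other. For Ifi204 the gap was 1.77 ± 0.35 (SE) on the log2 scale with an adjusted p of 0.00714, and for Lgals3bp it was 1.35 ± 0.27 (SE) with an adjusted p of 0.00871. Ifi204 reached the level tested through aged libraries only, which bears on this call too. The Lgals3bp differences had opposite signs, 0.64 and -0.71, while Ifi204 differed by 1.68 and -0.08. Ifitm3, with a gap of 0.40 and an adjusted p of 0.652, was not shown to differ between the comparisons, nor was Oasl2 (gap 1.01, adjusted p = 0.292). At a minimum of 1 RPM the called members were 4 of 31, against 1.18% of all genes, with Cxcl10 (gap 2.06, limma adjusted p = 0.011) and Ifit2 (gap 1.85, limma adjusted p = 0.041) added. The Ifi204 call was lost without control replicate 1 (adjusted p = 0.057) or deltaMG replicate 2 (0.055), and that of Lgals3bp without control replicate 1 (0.057) or deltaMG replicate 1 (0.056).

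**Figure D4:**
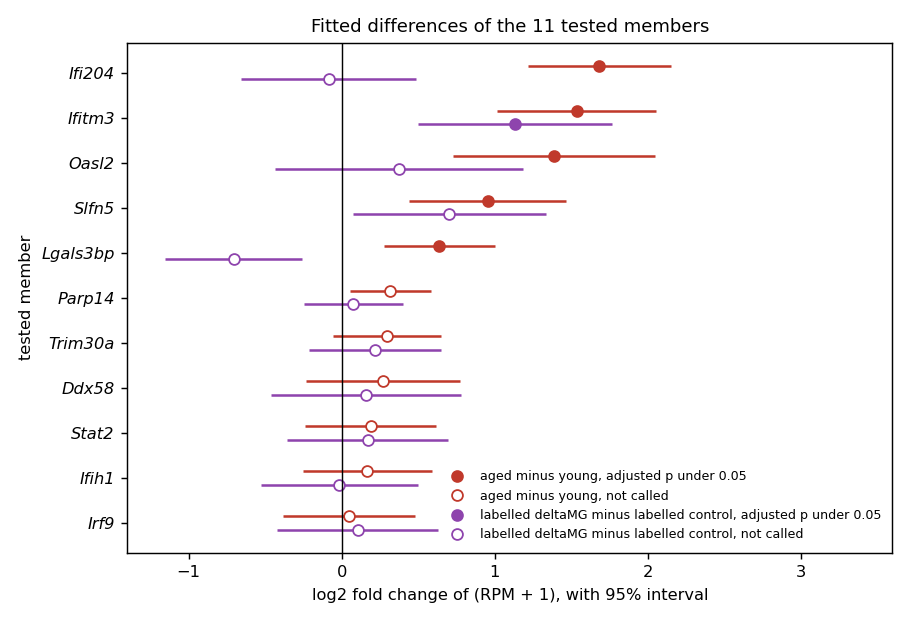
Fitted log2 difference of (RPM + 1) with its 95% interval for the 11 tested members, for aged minus young (red) and labelled deltaMG minus labelled control (purple). Filled points mark an adjusted p under 0.05, which 5 members reached in the first comparison and Ifitm3 alone in the second.

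The members' levels also differed widely within a library. Per kilobase of annotated exon and averaged over the 10 libraries, Ifitm3 was highest of the 31 at 47.8 RPM per kb, followed by Lgals3bp at 20.5, Trim30a at 8.83, Parp14 at 4.95 and Slfn2 at 4.28 RPM per kb. Ifi44 was lowest at 0.0984 RPM per kb. The highest of the 4 group means was that of the aged group for 27 of the 31 members, against 19.8% of all genes fitted at the lower minimum. It was that of the control group for Ifit3b, Bst2 and Lgals3bp, against 36.5% of those genes, and that of the deltaMG group for Irf9, against 25.8%. It was that of the young group for 0 members, against 17.9%.

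Of the rest of the pathway, the ligands were close to undetected. Of 21 interferon genes, 13 were listed at 0 in every library, and 0 reached the level tested. Ifnb1, singled out after its values were seen, was listed at 0 in all young and control libraries. It was at 0.940, 2.02 and 0.254 RPM in the aged libraries, or 6, 20 and 2 reads, and at 2 reads and 1 read in the deltaMG libraries. No other ligand had more than 2 reads in a library. Of 5 tested receptor chains, limma called 0 between aged and young libraries, and 1, Ifngr1, was lower at an unadjusted p under 0.05. Ifnar1 and Ifnar2, the chains that bind type I interferons, differed by 0.15 and -0.02 on the log2 scale, with limma adjusted p of 0.668 and 0.944. Ifngr1, a chain of the receptor for interferon gamma, was higher in deltaMG libraries, at 96.1 and 119 RPM against 69.5 and 68.1 RPM (log2 difference 0.63, limma adjusted p = 0.0330). That call was lost without control replicate 1 (adjusted p = 0.205), control replicate 2 (0.164) or deltaMG replicate 2 (0.203).

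Of 9 tested genes of receptor signalling and its inhibitors, limma called 0 in either comparison, and at an unadjusted p under 0.05 only Socs3 was higher in aged libraries. The kinases Jak1 and Tyk2 differed between aged and young libraries by -0.12 and -0.05 on the log2 scale, with limma adjusted p of 0.673 and 0.932. Of 17 tested genes of nucleic acid sensing, 4 had an aged minus young log2 difference above 0, with a median of -0.26. At an unadjusted p under 0.05 in limma, 2 were higher and 5 lower in aged libraries. Limma called 0 between deltaMG and control libraries (2 higher and 0 lower at an unadjusted p under 0.05). Tlr8 was called higher in aged libraries (log2 difference 1.17, limma adjusted p = 0.0425) and Tlr7 lower (-0.46, limma adjusted p = 0.0221). Among all tested genes 3.16% were called higher in aged libraries and 2.99% lower. Tlr8 and Tlr7 are both X-linked RNA sensors of the endosome, and sex differed between the aged and young groups. The Tlr8 call was lost without young replicate 1 or 3, aged replicate 1 or 3 or either control library (adjusted p from 0.067 to 0.173), and that of Tlr7 without any 1 young library or aged replicate 3 (0.051 to 0.082). Both calls were also lost with the neutrophil score. There Tlr8 differed by 0.71 (limma adjusted p = 0.143) and Tlr7 by -0.42 (0.072). With a replicate block the limma adjusted p were 0.122 for Tlr8 and 0.128 for Tlr7.

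Of 27 tested genes on a second list of interferon induced genes, outside the 31, aged libraries had higher levels of 4 and lower levels of 0. Limma called 3.16% of all tested genes higher and 2.99% lower. At an unadjusted p under 0.05 in limma, 10 of the 27 were higher and 1, Gbp7, was lower. The 4 called were Ifitm2 (2.02 on the log2 scale, limma adjusted p = 0.000578), Ifitm1 (2.24, 0.00727), Ifi203 (1.25, 0.0152) and the chemokine Ccl12 (0.86, 0.0288). The first 3 are relatives of the called members Ifitm3 and Ifi204. The Ifitm2 call held in every alternative that tested it, while that of Ifi203 was lost without young replicate 3, aged replicate 1 or aged replicate 3 (adjusted p from 0.057 to 0.072) and that of Ccl12 without any 1 young library or aged replicate 1 (0.052 to 0.108). Ifitm2 was 8.67, 7.87 and 7.77 RPM in young and 24.4, 28.8 and 65.4 RPM in aged libraries, with aged replicate 3 highest as for Ifitm3. It was also the 1 gene of that list called in deltaMG libraries, at 21.0 and 17.2 RPM against 6.09 and 5.92 RPM (log2 difference 1.52, limma adjusted p = 0.0194), and that call was lost without any 1 of the 4 libraries (adjusted p from 0.072 to 0.187) or with the neutrophil score (0.057). At an unadjusted p under 0.05 in limma, 6 of the 27 were higher in deltaMG libraries and 1 lower. Among all tested genes limma called 1.20% higher and 2.58% lower in deltaMG libraries. The median log2 difference between aged and young libraries was 0.19 over these 27 genes, 0.32 over the 11 tested members and -0.05 over all tested genes.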

How the data were processed

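RNA of bead-isolated microglia was amplified (NuGEN Ovation) and made into Ion Xpress Plus Fragment libraries, per the labels' protocols. GRCm38, mm10 and FastQC are named in the submitters' processing notes. No source used here gives the aligner, counter, annotation, strand setting or scaling. The authors' deposited table was taken to hold RPM. After a constant of 0.0001 was removed from every cell, 94.2% to 94.6% of the low values in each library came within 0.05 reads of a whole number. All members' values of up to 500 reads were whole reads, and higher ones, of Ifitm3 and Lgals3bp, were not checked. Enough genes were fractional that no count model was the main test.

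Genes reaching 10 RPM in 2 or more of the 10 libraries were fitted with limma 3.58.1 (R 4.3.3) on log2(RPM + 1), as 4 groups sharing 1 spread with 6 residual degrees of freedom, a mean-dependent prior and Benjamini-Hochberg adjustment over all genes. A call was an adjusted p under 0.05. Read intervals are exact and cover counting error only. Positions come from GENCODE M21. Library sums have no test, since the members and lists were chosen with earlier results of these data known. One listed signalling gene is not reported here. Per-library values are given in full for members with a mean of at least 10 RPM or called in any contrast, and for others of interest after their values were seen. The fit was tested on simulated data. Alternatives covered filters, pseudocounts, scalings, a replicate block, array weights, voom on estimated reads, a neutrophil score (mean log2 value of 14 markers) and leaving out each library. Figures were drawn with matplotlib 3.10.9.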

Additional observations from a re-analysis of the deposited data

How the results depend on the processing

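For aged against young libraries, 5 members were called higher, 0 lower. The count was 11 at a minimum of 1 RPM, 9 with voom, 9 at 1 RPM with aged replicate 3 left out and 9 at 1 RPM with the neutrophil score. It was 3 with the neutrophil score alone, with no mean-dependent trend, with a replicate block and with each comparison fitted on its own groups. In these settings 84, 110, 46 and 69 of 4151 genes were called higher, against 131. The count was 1 at a minimum of 50 RPM, where 1 member was tested and 32 of 790 genes were called higher. Leaving out a library gave 2 to 5, with 2 without young replicate 3 and 3 without aged replicate 3, control replicate 1 or control replicate 2. With no minimum 5 were called, of which Ifi204 and Ifitm3 were among the first 5 and Cxcl10, Ifit2 and Oas2 were not. That setting called 89 of 18015 genes higher. The log2 ratio of the members' sums stayed between 0.67 and 0.90.

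For the labelled deltaMG and control libraries, the count of 1 became 0 with no minimum, 50 RPM, a pseudocount of 5, a replicate block, no trend and voom. It became 2 (1 higher, 1 lower) with median-of-ratios scaling, equal totals, array weights or an adjusted p under 0.1. On own groups, or at 1 RPM with aged replicate 3 left out, it became 3 (2 higher, 1 lower). Calls over all 4151 genes rose too, from 157 to 231, 229, 357 and 287 in the settings just named with 2, and to 510 on own groups. At 1 RPM they rose from 182 to 396 of 10800 genes when aged replicate 3 was left out. With the neutrophil score the count stayed 1 but was 0 higher and 1 lower, where 193 of 4151 genes were called. Leaving out a library gave 0 to 2. The log2 ratio of the sums, 0.09, was 0.32 without Lgals3bp, 0.33 without the 4 highest members, 0.23 as a mean of log2 values, and 0.032 to 0.14 when a library was left out. The count for the contrast between the comparisons, 2, was 4 at 1 RPM, alone or with either added choice, 1 with no minimum or 50 RPM, and 0 to 2 without a library.

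Replicate numbers are shared between groups. Same-numbered aged and young libraries correlated at -0.14, -0.24 and -0.39 in their deviations from group means. Same-numbered control and deltaMG libraries correlated at 0.12. With so few libraries per group such deviations constrain each other, so these values cannot decide whether replicates were paired. Over all genes the block left 66 and 69 calls in the 2 comparisons, against 255 and 157. Rescaling by median of ratios gave 217 higher and 128 lower over all genes in aged libraries, against 131 and 124.

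Among the 11 tested members, signs turned only for those that were not called. For aged minus young this was Irf9, at -0.071 with array weights, -0.027 with the neutrophil score, alone or at 1 RPM, -0.054 at 1 RPM with aged replicate 3 left out, and -0.054 to 0.15 when a library was left out. For deltaMG minus control, the neutrophil score, alone or at 1 RPM, gave -0.040 for Stat2, -0.21 for Ddx58, -0.016 for Parp14 and 0.021 for Ifih1. Ifih1 was 0.0015 with median-of-ratios scaling. Leaving out a library gave -0.077 to 0.82 for Oasl2, -0.13 to 0.47 for Stat2, -0.35 to 0.18 for Ifi204, -0.062 to 0.21 for Parp14, -0.13 to 0.098 for Ifih1 and -0.11 to 0.32 for Irf9. Of the 20 low members, the neutrophil score at 1 RPM turned Rsad2, to -0.18 in aged minus young and -0.42 in deltaMG minus control, and in the latter also Oas1a (-0.0048) and Rtp4 (-0.043). Outside the members, the difference between aged and young libraries turned for Ifnar2, at 0.0039 with median-of-ratios scaling or equal totals, 0.0054 with quantile normalisation, 0.017 with the neutrophil score, alone or at 1 RPM, and -0.067 to 0.026 when a library was left out, and for Tyk2, at -0.23 to 0.075 when a library was left out, above 0 without aged replicate 1 or 2. The causes were not tested.

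Limits came from depth and group size. With 1 read worth 0.101 to 0.164 RPM, 4 members were at 0 in at least 1 library, and differences for Ifi44, Isg15 and Ifit3b rested on few reads. Pairs of libraries give each other no check beyond the shared spread.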
